A study of Drosophila melanogaster with 3 samples.

Results

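Male larvae of the third instar of Drosophila melanogaster were compared with female larvae by RNA sequencing, gene by gene. Males carry 1 X chromosome and a Y, and females carry a pair of X chromosomes. The series also holds metafemale larvae, which have an extra X with diploid autosomes, and their column is used here for the choice of transcript, for means over the deposited columns and for side checks. Per the labels, each group had 3 biological repeats, the stocks were kept at 20 degrees, and no genotype, strain or exact age within the instar was given. The authors deposited 1 value per transcript and group, so each group enters as 1 pooled column, 2 of the 3 columns of the series are compared, and no difference has a replicate check.

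Every gene name in the tables was kept once, by its most abundant transcript (highest mean over the deposited columns), which gave 14161 genes, 2238 of them X-linked. Values are in counts per 1000000 transcript counts (CPM). A gene was called higher or lower in males when the ratio of male + 1 CPM to female + 1 CPM reached 2-fold, and log2 values are of this ratio unless a plain fold is named. The added 1 CPM understates the change of low genes. Genes under 1 CPM in females (4607 genes) were described apart from genes at 10 CPM or more in females (5870 genes). The remaining 3684 genes lay between these limits. The first class is meant to hold the genes of the male gonad and the second the rest of the body, but the limits use only the female level. They admit other genes too, such as roX2, and the class names below stand for the limits.

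Late in larval life the testis is large and rich in spermatocytes, while the ovary is still small. Spermatocytes transcribe most of the genes that spermatids later need, and many of these genes are silent in every other tissue. In the soma, males make the MSL complex with the non-coding RNAs roX1 and roX2, which binds the single X chromosome and raises its transcription. In females the RNA-binding protein Sex-lethal (Sxl) blocks translation of msl-2 and directs the female splicing of transformer.

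The 3 libraries of each column had totals, inferred from the step sizes of the lowest values and not stated in a label, of 31.6 to 92.4 M transcript counts in males and 65.6 to 89.2 M in females. The pooled columns carry the counting error of 169 M counts in males and 226 M in females, and 3 counts correspond to 0.0178 and 0.0133 CPM. The intervals of plain folds below are exact 95% intervals for counting error only, and do not cover the spread between larvae. Those of X-linked shares are binomial over genes, and do not cover that spread either. In RNA from entire larvae, fewer cells of a type and less RNA per cell cannot be told apart.

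The labels were checked with genes that mark the male sex. The non-coding RNA roX1 stood at 388 CPM in males and 20.7 CPM in females, a plain fold of 18.8 (18.2 to 19.3). roX2 stood at 50.5 CPM in males and 0.181 CPM in females. The testis-specific tubulin betaTub85D stood at 155 CPM in males and 0.621 CPM in females. All 3 go with the labels. In metafemales they read 17.7, 0.0339 and 0.237 CPM, on the side of the females.

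Of all 14161 genes, 1919 (13.6%) were higher and 216 (1.53%) lower in males. A mean of 1 CPM or more over the male, female and metafemale columns was reached by 10942 genes. Of these, 1670 (15.3%) were higher and 214 (1.96%) lower in males, with a median log2 ratio of -0.04. Most of the higher genes were low in females. Of the genes under 1 CPM in females, 1605 of 4607 (34.8%) were higher in males. Of those at 1 to 10 CPM in females, 219 of 3684 (5.94%) were higher and 75 (2.04%) lower. Of those at 10 CPM or more in females, 95 of 5870 (1.62%) were higher and 141 (2.4%) lower. With 1 CPM added, a gene under 1 CPM in females cannot be called lower, so the first class has no count in that direction, and 2886 of its genes were under 1 CPM in males as well. The metafemale column takes no part in the male to female ratio. Split by that column, 1644 of 4737 genes under 1 CPM (34.7%) were higher in males and 15 (0.317%) lower, against 66 (1.27%) higher and 151 (2.9%) lower of 5213 genes at 10 CPM or more.

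**Figure D1:**
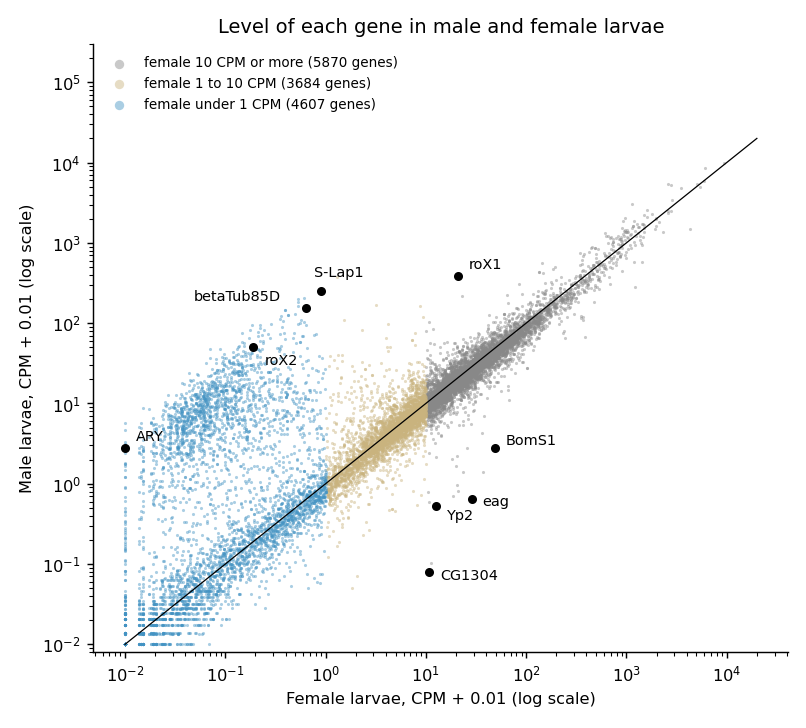
Each point is a gene, with its level in females on the x axis and in males on the y axis, both as CPM + 0.01 on log scales, and the line marks equal levels. The genes under 1 CPM in females form a cloud along the line and a second cloud far above it, while most genes at 10 CPM or more in females lie near the line, with roX1 above it and eag, Yp2, BomS1 and CG1304 below it.

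The genes nearly silent in females took 2.19% of all male transcript counts and 0.0798% of all female ones, with 1 transcript per gene summed. The total here includes every transcript, and summed in this way all 14161 genes took only 51.7% of male and 49.1% of female counts. The count was carried by many moderate genes and a few strong ones. Counted once per current gene, 1715 of them reached 1 CPM in males, 599 reached 10 CPM and together took 1.61% of male counts, 60 reached 50 CPM and 17 reached 100 CPM. The genes next to the limit show no step there. Just under 1 CPM in females, p24-2 had 1.19 CPM in males against 1.0 CPM in females, IFT20 had 0.886 against 1.0 CPM CG1545 had 1.33 against 0.998 CPM, E(spl)m5-HLH had 0.778 against 0.997 CPM and CG7386 had 4.15 against 0.995 CPM. Just over it, CG5435 had 6.64 CPM in males against 1.0 CPM in females and the homeotic gene Dfd had 1.16 against 1.0 CPM, CG31274 had 1.15 against 1.01 CPM, CG34386 had 1.22 against 1.01 CPM and CG42526 had 1.001 against 1.01 CPM.

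The strongest gene of the class was S-Lap1, which encodes one of the sperm leucyl aminopeptidases, abundant proteins of the sperm. It had 249 CPM in males and 0.891 CPM in females, a plain fold of 280 (243 to 323). loopin-1, which encodes another aminopeptidase of sperm, followed with 203 CPM in males and 0.604 CPM in females. Next came S-Lap7 with 197 CPM in males and 0.517 CPM in females, S-Lap4 with 185 and 0.519 CPM, and S-Lap3 with 163 and 0.521 CPM. All 5 of these genes encode aminopeptidases of sperm. salto had 155 CPM in males and 0.622 CPM in females, and betaTub85D, the tubulin of the sperm axoneme, had 155 and 0.621 CPM, a plain fold of 249 (211 to 296). S-Lap8 had 147 CPM in males and 0.384 CPM in females, a plain fold of 383 (310 to 477). S-Lap2 had 131 and 0.483 CPM.

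Of the 15 genes of the class with the highest male level, 6 encode S-Lap proteins and 5 carry only CG names. CG12699 had 145 CPM in males and 0.381 CPM in females. CG9130 and CG9133 had identical values in all 3 columns (127 CPM in males, 0.409 CPM in females) and may share their reads. CG3213 had 123 CPM in males and 0.346 CPM in females, and CG2127 had 109 and 0.556 CPM. The chaperonin gene Hsp60C, needed in spermatogenesis, had 113 CPM in males and 0.340 CPM in females. Every one of these 15 genes is autosomal.

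Some genes of the same kind fell outside the class because females had slightly more than 1 CPM. The following were chosen after their values were seen. CG4836 had 376 CPM in males and 1.3 CPM in females, the largest log2 ratio among genes of 1 to 10 CPM in females. CG31538 had 111 CPM in males and 1.52 CPM in females. exu, which encodes an RNA-binding protein with a male germline transcript, had 170 CPM in males and 3.17 CPM in females, and Mst87F, a gene for a sperm tail protein, had 81.6 and 2.30 CPM.

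Female larvae held a trace of these transcripts. Over the 60 genes of the class with at least 50 CPM in males, the female level was a median of 0.343% of the male level (quartiles 0.278 and 0.516%, range 0.179 to 1.09%), and no gene stood at 0. The limit of 1 CPM itself caps this share at 2%. The metafemale level was a median of 0.0794% of the male level for the same genes. With the class set by the metafemale column, 66 genes had at least 50 CPM in males, and their female level was a median of 0.350% of the male level. How the trace arose was not tested.

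Ordered by their roles, most members of the male germline lists were higher in males. Over 7 such lists with 103 genes, 88 were called higher, 0 lower and 15 neither, against the 13.6% higher among all 14161 genes. All of these lists hold genes known for the testis, so the count describes their levels and is not independent evidence of the tissue. Of the 103 genes, 89 were under 1 CPM in females, of which 78 were higher, against 34.8% of all 4607 genes under that limit.

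The regulators of spermatocyte transcription include the testis meiotic arrest complex (aly, comr, topi, tomb, achi, vis, mip40, wuc), the testis TAFs (can, sa, mia, nht, Taf12L) and translational regulators such as bol. Of 19 members, 15 were called higher, 0 lower and 4 neither, and the median log2 ratio was 2.29. With 5 CPM added, 8 were higher. Among all genes 13.6% were higher, and among those under 1 CPM in females, where 13 of the 19 members stood, 34.8%. bol, which controls meiotic entry through translation of twine, had 65.5 CPM in males and 3.96 CPM in females. Taf12L had 12.2 CPM in males and 0.332 CPM in females, and nht had 5.28 and 0.0265 CPM. bgcn, which restrains spermatogonial divisions together with bam, had 7.14 CPM in males and 0.372 CPM in females. bam itself had 0.589 CPM in males and 0.112 CPM in females and was not called. The other members within 2-fold were mip40, heph and achi. mip40 and heph act in other tissues too, and stood at 22.7 and 88.6 CPM in males and 17.98 and 69.8 CPM in females.

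Genes for the products of later stages reached higher levels. The 19 genes for spermatid structure and sperm chromatin were all higher in males, with a median log2 ratio of 5.10. Their summed level was 1077 CPM in males and 7.45 CPM in females. Of all genes under 1 CPM in females, where 17 of the 19 stood, 34.8% were higher. Mst77F, which encodes a histone-like protein of sperm chromatin, had 105 CPM in males and 0.603 CPM in females. The sperm tail gene Mst84Db had 83.2 CPM in males and 0.167 CPM in females. The protamine genes ProtA and ProtB, which package sperm DNA, had 17.1 and 18.6 CPM in males and 0.0338 and 0.0459 CPM in females. fzo, the mitofusin of the spermatid, had 27.6 CPM in males and 0.725 CPM in females. The 7 sperm leucyl aminopeptidase genes were all higher as well, with a summed level of 1093 CPM in males and 3.48 CPM in females, and S-Lap5 was the lowest of them at 20.2 CPM in males and 0.161 CPM in females.

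The testis uses its own copies of many housekeeping genes. Most of these copies were under 1 CPM in females, where 34.8% of all genes were higher. Of 20 testis paralogs of mitochondrial proteins, 20 were higher in males, and their median log2 ratio was 3.39. COX4L, a copy of a cytochrome c oxidase subunit, had 27.5 CPM in males and 0.187 CPM in females. tomboy20, a copy of a mitochondrial import receptor, had 18.2 CPM in males and 0.0420 CPM in females. COX7AL had 17.5 and 0.127 CPM and tomboy40 had 18.3 and 0.349 CPM. Of 14 testis paralogs of proteasome subunits, 14 were higher, with a median log2 ratio of 3.11. Prosalpha6T had 12.1 CPM in males and 0.0432 CPM in females, Rpn12R had 11.7 and 0.0457 CPM, Prosbeta4R1 had 10.35 and 0.0214 CPM, and Prosbeta5R1 had 9.45 and 0.0303 CPM. Of 32 general proteasome subunits, 0 were called in either direction. At 10 CPM or more in females, where 31 of them stood, only 1.62% of genes were higher and 2.4% lower. The count is thus near the share of that class. Their median log2 ratio was -0.07 (0.03 with median-of-ratios scaling). Rpn6 had 203 CPM in males and 217 CPM in females, and Prosalpha4 had 176 and 199 CPM. Among 93 genes of ribosomal proteins 9 were higher and 0 lower, against 13.6% higher among all genes. Of the 9, 6 were among the 7 genes of this list that were under 1 CPM in females. Examples were RpL37-2 at 12.8 CPM in males and 0.0382 CPM in females, RpL10Aa at 11.3 and 0.0415 CPM, RpS19b at 13.5 and 0.492 CPM and RpL22-like at 9.79 and 0.171 CPM.

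Genes for the sperm axoneme were split. Of 12 axoneme motors and testis tubulins, 8 were higher, 0 lower and 4 within 2-fold, against 13.6% higher among all genes. The dynein heavy chain gene Dhc98D had 24.5 CPM in males and 0.254 CPM in females, and Dhc36C had 22.4 and 0.454 CPM. gudu, an armadillo-repeat gene needed for spermatogenesis, had 15.9 CPM in males and 0.0489 CPM in females. Dhc93AB, an axonemal dynein of sensory neurons, had 0.477 CPM in males and 0.461 CPM in females. alphaTub85E, which is also expressed in the soma, had 8.77 CPM in males and 15.3 CPM in females and was within 2-fold. The heat shock list held a further testis gene, Hsp60B, at 65.1 CPM in males and 0.161 CPM in females.

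The Y-linked fertility genes were low in males. All 12 were under 1 CPM in females, where a gene cannot be called lower. None reached a mean of 1 CPM over the male, female and metafemale columns. Of the 12, 5 were called higher in males and 7 were not, a share near the 34.8% higher among all genes under 1 CPM in females. The added value sets this count, which was 11 with 0.1 CPM added and 0 with 5 CPM added. ARY had 2.78 CPM in males and stood at 0 in females, where 3 counts would give 0.0133 CPM. The dynein heavy chain genes kl-2, kl-5 and kl-3, with giant introns, had 2.73, 2.0 and 1.65 CPM in males and 0.0481, 0.0442 and 0.0631 CPM in females. Pp1-Y2, a phosphatase gene, had 1.17 CPM in males and 0.00448 CPM in females. Across the 10 gene names placed on the Y with at least 0.5 CPM in males, the female level was a median of 1.99% of the male level, and 9 of them stood at 0 in metafemales. FDY held the highest share, at 0.841 CPM in males and 0.116 CPM in females. Values of Y genes with near-identical copies elsewhere in the genome are uncertain, since these share or split reads.

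**Figure D2:**
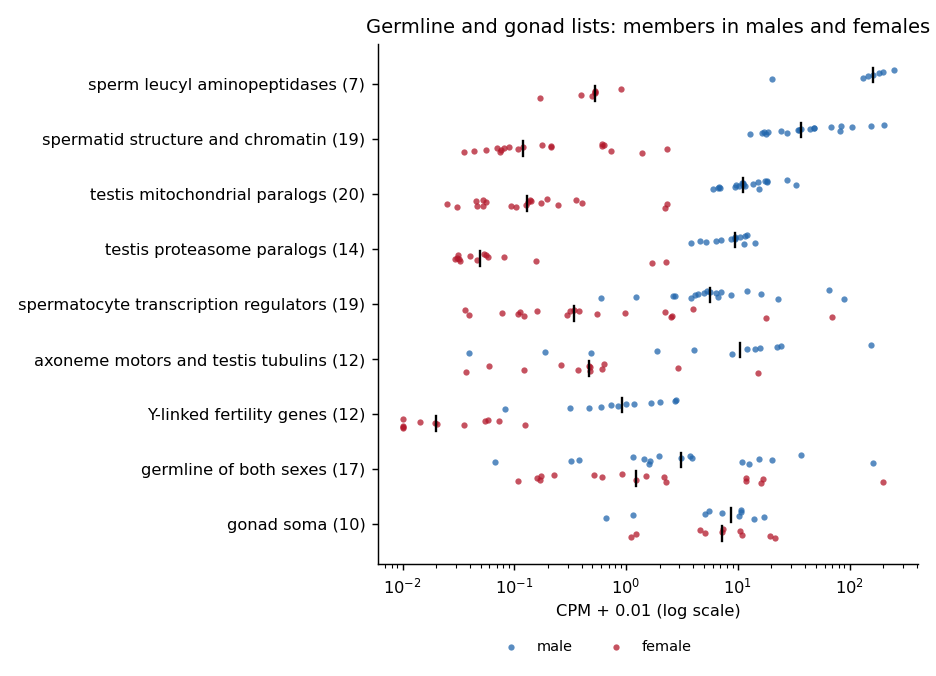
Each point is a member of a list, at its level in males (blue, upper row) or females (red, lower row) as CPM + 0.01 on a log scale, with the number of members in brackets and the median as a black bar. For most members of the male germline lists the male level is far above the female one, with exceptions in the spermatocyte and axoneme lists. The male and female points overlap for the genes of both germlines and for the somatic gonad.

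Few genes of both germlines and of the somatic gonad were called. Of 17 germline genes known in both sexes, 2 were higher, 0 lower and 15 within 2-fold. This share is near the 13.6% higher among all 14161 genes. The median log2 ratio of the 17 was 0.26, and 0.66 with 0.1 CPM added, so the added value sets much of this result. With 0.1 CPM added 5 were higher, with 5 CPM added 1, and under either other scaling 3. orb, which encodes an RNA-binding protein with a male germline transcript, had 36.4 CPM in males and 0.906 CPM in females, and stil had 3.75 and 0.216 CPM. The Piwi-family gene aub had 1.95 CPM in males and 0.507 CPM in females, nanos had 1.15 and 0.162 CPM, and the germline helicase gene vas had 1.45 and 0.597 CPM, none of them called. osk, a gene of the oocyte, was at 0.0574 CPM in males and 0.0990 CPM in females. Of 10 genes of the somatic gonad, 0 were called in either direction. All 10 were at 1 CPM or more in females, where few genes of any kind were called (5.94% higher and 2.04% lower at 1 to 10 CPM). tj, which marks somatic gonad cells of both sexes, had 0.652 CPM in males and 1.09 CPM in females, and zfh1 had 14.1 and 21.4 CPM. stg, a cell cycle phosphatase gene not limited to the gonad, had 17.01 CPM in males and 19.3 CPM in females.

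The X chromosome held a smaller share of the strong male genes than of the weak ones. Among all genes under 1 CPM in females with a place on the X or an autosome, 14.9% were X-linked, and among those called higher 14.6%. At 1 to 3 CPM in males, 82 of 391 genes were X-linked (21.0%, exact 95% binomial interval 17.04 to 25.3%). At 3 to 10 CPM in males the share was 15.4% (112 of 725), at 10 to 30 CPM it was 9.65% (44 of 456, 7.10 to 12.7%), and at 30 CPM or more it was 6.94% (10 of 144, 3.38 to 12.4%). With the class set by the metafemale column the shares in these 4 bins were 16.3, 14.9, 9.67 and 6.41%. The share was 17.1% among genes at 10 CPM or more in females.

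**Figure D3:**
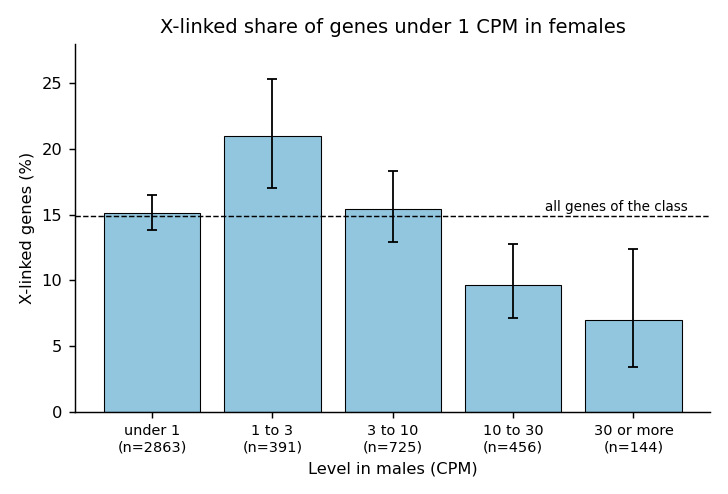
Bars give the X-linked share, in percent, of genes under 1 CPM in females, by their level in males in CPM, with exact 95% binomial intervals and the number of genes under each bar. The dashed line is the share over all genes of the class (14.9%), and the share is 21.0% at 1 to 3 CPM in males and 6.94% at 30 CPM or more.

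The strongest X-linked genes of this kind, listed after their values were seen, were CG8565 with 56.1 CPM in males and 0.227 CPM in females, CR32690 with 52.7 and 0.179 CPM, and roX2. Next were CG1394 (46.5 CPM in males, 0.207 CPM in females), CG15306 (40.1 and 0.166 CPM) and the testis thioredoxin gene TrxT (37.9 and 0.212 CPM). roX2 is the one among these that belongs to the soma of males.

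Few genes showed the mirror pattern. Of 3072 genes under 1 CPM in males, 33 (1.07%) were higher in females, and 34.8% of the genes under 1 CPM in females were higher in males. The highest female level among genes under 1 CPM in males was that of eag, which encodes a potassium channel, with 0.642 CPM in males and 28.7 CPM in females. CG9360 followed, with 0.803 CPM in males and 21.0 CPM in females. Gnmt, the glycine N-methyltransferase gene, had 0.964 CPM in males and 20.4 CPM in females. The stress gene TotC had 0.583 CPM in males and 10.7 CPM in females, CG33462 had 0.779 and 10.5 CPM, and CG6271 had 0.716 and 8.99 CPM.

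In the body class, males and females were close. The median log2 ratio was -0.11, with 95 genes higher and 141 lower of 5870. Scaled to the median ratio of genes, 126 were higher and 115 lower, and scaled to the median autosomal gene, 117 and 124, so the balance of directions depends on the scaling. The class requires 10 CPM in females, which by itself favours calls of lower genes. The genes at the limit show the same closeness: just inside, Tpt had 15.5 CPM in males and 10.01 CPM in females bves had 7.24 and 10.02 CPM, CG32170 had 4.60 and 10.004 CPM, CG12106 had 9.42 and 10.02 CPM, and Mrp4 had 8.62 and 10.02 CPM. Just outside, Keap1 had 7.53 CPM in males and 9.99 CPM in females Cdk7 had 7.07 and 9.98 CPM, YL-1 had 9.42 and 9.998 CPM, Fcp1 had 8.44 and 9.998 CPM, and idc had 8.61 and 9.98 CPM.

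X-linked genes of the body class were slightly lower than autosomal ones. Their median log2 ratio was -0.27 over 1006 genes, against -0.08 over 4864 autosomal genes, a difference of -0.18, which is a ratio of 0.881. In all, 81.2% of the X-linked genes had a log2 ratio below 0, against 61.7% of the autosomal genes. Of the X-linked genes, 10 were higher (0.994%) and 35 lower (3.48%). Of the autosomal genes, 85 were higher (1.75%) and 106 lower (2.18%).  The difference of the medians does not depend on the scaling of the columns, apart from the added 1 CPM. The counts and the shares below 0 do depend on it.

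The offset of the X was present at every level and along the chromosome. Its value was -0.18 for genes at 10 to 30 CPM in females, -0.19 at 30 to 100 CPM, -0.14 at 100 to 300 CPM and -0.10 at 300 CPM or more, the last over 37 X-linked genes. In 10 successive blocks of about 100 genes along the X it lay between -0.06 and -0.24. The 4 large autosome arms had medians of -0.08 (2L), -0.09 (2R), -0.09 (3L) and -0.08 (3R). The 60 genes of chromosome 4 had a median of -0.19, with 0 called higher and 0 called lower. These counts are near the shares of the class, 1.62% higher and 2.4% lower.

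**Figure D4:**
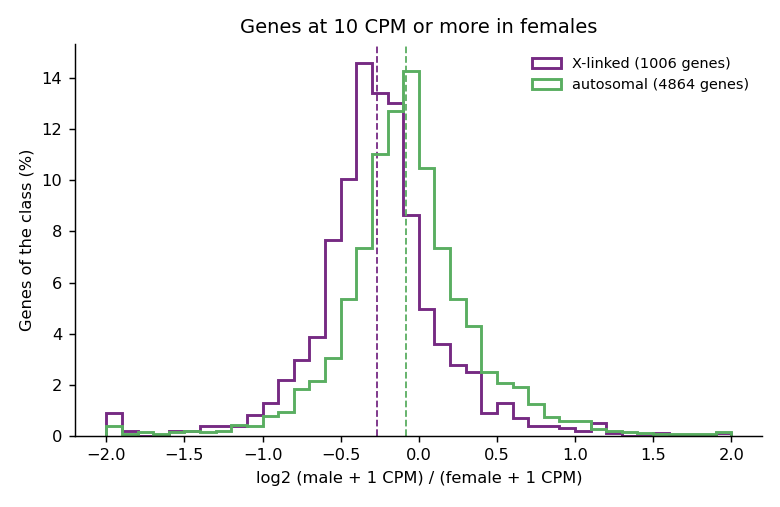
The lines give the percent of X-linked (purple) and autosomal (green) genes at 10 CPM or more in females, by log2 ratio of male + 1 CPM to female + 1 CPM in bins of 0.1, with values beyond 2 units placed in the end bins. The dashed medians are -0.27 for the X-linked and -0.08 for the autosomal genes, and the curves have a similar width.

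The dosage compensation genes were led by the roX RNAs. Of 9 members, 3 were higher, 0 lower and 6 within 2-fold, against 13.6% higher among all genes. Beside roX1 and roX2, msl-2, the subunit of the complex that is made in males, had 20.8 CPM in males and 7.62 CPM in females. The other subunits were within 2-fold. mof, the acetyltransferase, had 9.53 CPM in males and 6.45 CPM in females, msl-3 had 8.58 and 6.55 CPM, the helicase gene mle had 27.5 and 22.9 CPM, and msl-1 had 18.7 and 18.7 CPM. The kinase gene JIL-1 had 61.3 CPM in males and 46.3 CPM in females, and Clamp, whose product recruits the complex to DNA, had 40.7 and 42.0 CPM.

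Sex determination genes were within 2-fold or lower in males. Of 20 members, 0 were higher, 4 lower and 16 within 2-fold, against 1.53% lower among all genes. With 0.1 CPM added 6 were lower, and with 5 CPM added 2. Sxl, the switch gene, had 27.3 CPM in males and 103 CPM in females, a plain fold of 0.264 (0.256 to 0.273). Its 23 annotated transcripts ran from 13.1 to 27.9 CPM in males and from 24.97 to 103 CPM in females, and their log2 ratios from -1.90 to -0.57. dsx, the last regulator of the pathway, had 3.88 CPM in males and 9.82 CPM in females, and its 3 transcripts had log2 ratios from -1.15 to -0.02. sisA, an X-linked signal element that counts X chromosomes in the embryo, had 0.0401 CPM in males and 1.81 CPM in females. The yolk protein gene Yp2 had 0.523 CPM in males, 12.6 CPM in females and 0.594 CPM in metafemales, so its female level was not shared by the metafemales.

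Other members of the pathway were within 2-fold. tra had 2.88 CPM in males and 5.82 CPM in females, with identical values in its 2 transcripts, and fru had 7.45 and 12.5 CPM. Yp3 had 0.687 CPM in males and 2.10 CPM in females, Yp1 had 0.544 and 1.23 CPM, and the X-linked signal genes sc and run had 3.86 and 1.43 CPM in males and 6.39 and 1.85 CPM in females. tra2, her, ix, vir, snf, fl(2)d, da, emc, gro and dpn had log2 ratios between -0.29 and 0.33. The deposited transcript values share the reads of common exons, so they do not measure male and female splice forms.

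The 10 body genes with the largest increase were roX1 and 9 autosomal genes, among them genes of cuticle structure and pigment chemistry. e (ebony), an enzyme of cuticle pigmentation, had 218 CPM in males and 23.0 CPM in females, a plain fold of 9.46 (9.19 to 9.74). In metafemales it had 1.097 CPM. ple, tyrosine hydroxylase, had 556 CPM in males, 143 CPM in females and 6.37 CPM in metafemales. Pu, GTP cyclohydrolase, which makes a cofactor of tyrosine hydroxylase, had 310, 85.2 and 18.1 CPM in the same order. CG7906 had 84.4 CPM in males, 11.8 CPM in females and 0.164 CPM in metafemales. These 4 genes were far lower in metafemales than in females. The larval cuticle gene Lcp9 had 56.3 CPM in males, 11.1 CPM in females and 81.6 CPM in metafemales.

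For the other 4 the metafemale value was below the female one by less than 2-fold. sm, which encodes an RNA-binding protein, had 105 CPM in males and 10.8 CPM in females. CG16972 had 80.2 and 10.1 CPM, the exonuclease gene Rexo5 had 54.97 and 12.1 CPM, and the tubulin ligase family gene TTLL4A had 45.7 and 10.4 CPM. Their metafemale values were 5.69, 8.33, 11.2 and 9.81 CPM.

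The 10 body genes with the largest decrease were X-linked in 6 cases, against a share of 17.1% of the class. eag had 0.642 CPM in males and 28.7 CPM in females, a plain fold of 0.0224 (0.0183 to 0.0270). CG9981 had 1.37 CPM in males and 37.5 CPM in females, and CG9360 had 0.803 and 21.0 CPM. The serine protease gene Ser6 had 0.0939 CPM in males and 11.3 CPM in females, and its neighbour on the X, CG1304, had 0.0688 and 10.7 CPM. Yp2 is the sixth. In metafemales eag, CG9981, CG9360, Ser6 and CG1304 stood at 17.1, 25.2, 12.3, 14.1 and 20.4 CPM, on the side of the females. Apart from the Ser6 and CG1304 pair, these genes lie at least 183 protein-coding genes apart on the X.

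The autosomal genes among these 10 were CG12374, Gnmt and the immune genes BomS1 and AttC. BomS1, which encodes a short immune-induced peptide, had 2.75 CPM in males, 49.1 CPM in females and 6.48 CPM in metafemales. AttC, an attacin, had 1.37 CPM in males, 23.7 CPM in females and 0.900 CPM in metafemales. CG12374 had 0.685, 18.6 and 0.863 CPM in the same order. For these 3 genes the females stood apart from both other groups.

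Antimicrobial and immune peptide genes had more lower genes than any other list examined. Of 33 members, 1 was higher, 17 lower and 15 within 2-fold. In the body class 13 of 18 were lower, with a median log2 ratio of -1.44, against 2.4% lower and a median of -0.11 over the class. Beside BomS1, AttC and TotC, the peptide gene Dso1 had 1.63 CPM in males and 19.8 CPM in females. Drs (drosomycin) had 67.9 CPM in males and 390 CPM in females, Mtk (metchnikowin) had 6.44 and 26.4 CPM, and DptA (diptericin) had 22.3 and 60.2 CPM. The peptides of Drs, Mtk and DptA come from the fat body after Toll or Imd signalling. The summed level of the list was 596 CPM in males, 1619 CPM in females and 773 CPM in metafemales. The exception was IM18, with 3.59 CPM in males and 0.937 CPM in females.

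Fat body, energy and blood lists had lower medians than the body class, in which 2.4% of genes were lower and the median was -0.11. Of 20 fat body and storage genes, 0 were higher, 5 lower and 15 within 2-fold, with a median of -0.48 for the 19 in the body class. Fbp2, a fat body protein, had 284 CPM in males and 1227 CPM in females. The storage protein genes Lsp1beta and Lsp1alpha had 1505 and 185 CPM in males and 4342 and 474 CPM in females, while Lsp2 had 9876 CPM in males and 9444 CPM in females. The fatty acid synthase genes FASN1 and FASN2 had 96.9 and 5.80 CPM in males and 213 and 13.9 CPM in females. Of 21 glycolysis and sugar genes, 0 were higher, 2 lower (1 with 5 CPM added) and 19 within 2-fold, with a median of -0.60 for 20 in the body class. Ldh, lactate dehydrogenase, had 29.1 CPM in males and 65.5 CPM in females, and Gpo1 had 7.46 and 17.4 CPM.

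Haemocyte and matrix genes had a body median of -0.53. The shares to set beside the counts in this paragraph are 13.6% higher and 1.53% lower among all genes. Of 18 members, 0 were higher and 3 lower: the prophenoloxidase genes PPO2, with 9.85 CPM in males and 29.8 CPM in females, and PPO1, with 11.9 and 26.8 CPM, and Hml (hemolectin), with 32.7 and 90.9 CPM. Of 25 muscle structure genes, 1 was higher, 1 lower (0 with median-of-ratios scaling or 5 CPM added) and 23 within 2-fold, with a body median of -0.44. Mlp60A had 229 CPM in males and 90.03 CPM in females, and Obsc had 18.3 and 39.3 CPM. Of 37 detoxification genes, 0 were higher, 5 lower and 32 within 2-fold, against 1.53% lower among all genes, and 9 were lower with 0.1 CPM added and 2 with 5 CPM added. The lower ones included the cytochrome P450 genes Cyp6a8 (3.23 CPM in males, 12.4 CPM in females), Cyp28a5 (3.59 and 9.62 CPM), Cyp6w1 (5.26 and 13.2 CPM) and Cyp6a23 (36.96 and 83.9 CPM). Of 31 digestive enzyme genes, 0 were higher, 4 lower (6 with 0.1 CPM added) and 27 within 2-fold. The 4 lower ones were the amylase genes Amy-p (8.17 CPM in males, 30.5 CPM in females) and Amy-d (16.7 and 43.4 CPM), the lysozyme gene LysP (5.03 and 16.8 CPM) and the maltase gene Mal-A3 (1.17 and 4.67 CPM).

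Genes of the cuticle and of the ecdysone response were called higher at shares near or below the 13.6% among all genes, though above the 1.62% of the body class that most of the called members belong to. Of 32 larval cuticle genes, 4 were higher (Lcp9, ple, Lcp3 and Lcp4), 1 was lower (Cpr47Eb) and 27 were within 2-fold. With 0.1 CPM added, 10 were higher and 3 lower. The median of the 12 in the body class was 0.57. Lcp3 had 3088 CPM in males and 1144 CPM in females, Lcp4 had 5392 and 2595 CPM, and Cpr47Eb had 18.7 and 51.8 CPM. Of 30 ecdysone response genes, 3 were higher, 0 lower and 27 within 2-fold: the nuclear receptor genes Hr4 (52.1 CPM in males, 23.6 CPM in females), Eip78C (41.5 and 18.2 CPM) and Hr3 (17.6 and 7.05 CPM). With 5 CPM added, 1 was higher. The early genes br and EcR had 222 and 78.3 CPM in males and 249 and 107 CPM in females. In metafemales Hr4, Eip78C and Hr3 stood at 1.15, 1.18 and 0.593 CPM.

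Salivary glue genes were mixed. Of 16 glue and 71E genes, 2 were higher, 2 lower and 12 within 2-fold, against 13.6% higher and 1.53% lower among all genes, with a body median of 0.26. With median-of-ratios scaling 4 were higher, and with 5 CPM added 0 were higher and 0 lower. ng1 and ng2, near-identical copies that share reads, had 2.52 and 3.58 CPM in males and 9.82 and 11.8 CPM in females. Eig71Ea and Eig71Eb had 3.35 and 1.75 CPM in males and 1.03 and 0.139 CPM in females. The major glue gene Sgs8 had 1846 CPM in males and 923 CPM in females, just within 2-fold, and Sgs3 had 1529 and 1485 CPM. Glue, cuticle and ecdysone genes change with age late in larval life, and the labels do not give the ages of the larvae.

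Other lists had few calls. Over all genes 13.6% were higher and 1.53% lower, and in the body class 1.62% were higher and 2.4% lower. No gene of 17 neuron and synapse genes was called, with Syt1 at 35.9 CPM in males and 47.7 CPM in females and futsch at 16.7 and 24.9 CPM. Of 29 replication and cell cycle genes, 1 was higher, aurA, the mitotic kinase, with 14.4 CPM in males and 5.72 CPM in females, and with 5 CPM added 0. Of 21 insulin and TOR genes, 1 was lower, the X-linked growth regulator Myc, with 17.8 and 38.5 CPM, which was not called with median-of-ratios scaling or 5 CPM added. Of 19 heat shock genes, the co-chaperone gene stv was lower, with 37.5 CPM in males and 86.5 CPM in females. Among the ribosomal protein genes of the body class, 3 of 86 were higher, with a median of 0.21: RpL38 (1328 CPM in males, 609 CPM in females), RpL41 (2049.8 and 958 CPM) and RpS5b (24.8 and 11.6 CPM). Of 69 oxidative phosphorylation genes, 4 were higher and 0 lower, against 13.6% higher among all genes and with a body median of 0.36. Under either other scaling 8 were higher, and with 5 CPM added 1. The 4 were ox, with 48.9 CPM in males and 20.2 CPM in females, UQCR-6.4, with 44.7 and 21.2 CPM, ND-B12, with 68.7 and 33.2 CPM, and ND-B8, with 2.41 and 0.00374 CPM.

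**Figure D5:**
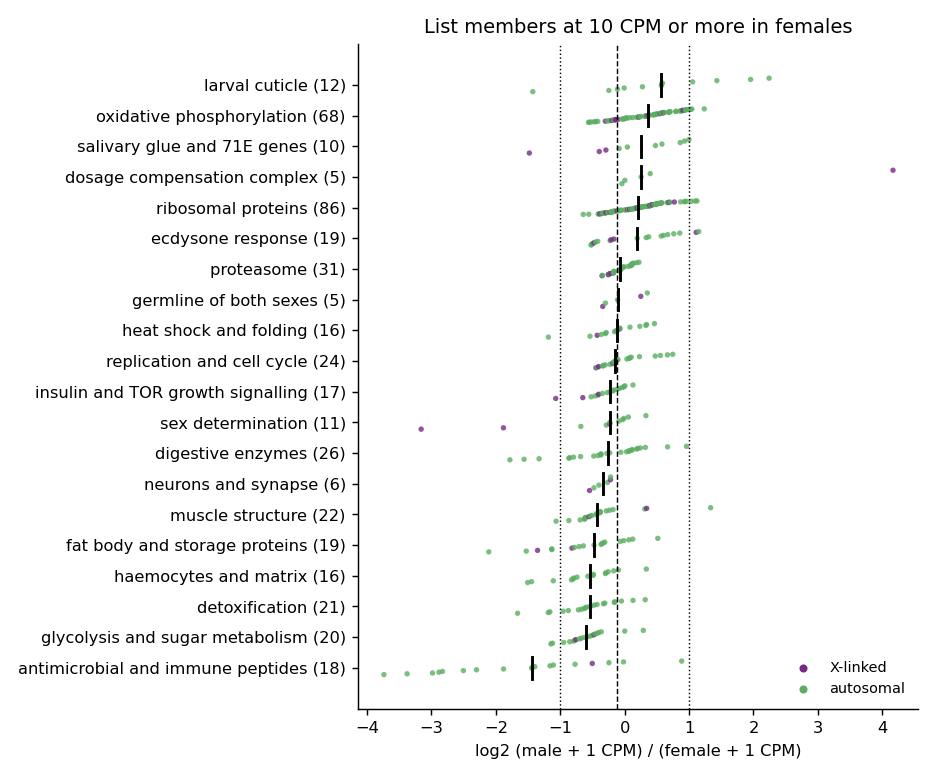
Each point is a list member at 10 CPM or more in females, by its log2 ratio of male + 1 CPM to female + 1 CPM, X-linked in purple and autosomal in green, with the median as a black bar, the number of members in brackets and lists ordered by their median. Dotted lines mark 2-fold and the dashed line the median of the class (-0.11). The cuticle list has the highest median (0.57) and the antimicrobial list the lowest (-1.44).

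The deposited transcript values of 1 gene rarely differed in their male to female ratio. These values share the reads of common exons, so the count below cannot show how often splice forms differ between the sexes. Among 3176 gene names with at least 2 transcripts at 5 CPM or more in either sex, 3 (0.0945%) had ratios that differed by 2 or more on the log2 scale. In CG15892, 1 transcript had 36.5 CPM in males and 15.8 CPM in females, and another had 20.0 and 0.277 CPM. The first of these has the values of CG15891 in all columns. In loopin-1, 1 transcript had 203 CPM in males and 0.604 CPM in females and another 21.0 and 0.050 CPM. In nis the transcripts had 65.9 and 11.2 CPM in males and 0.458 and 0.0850 CPM in females. In loopin-1 and nis both transcripts were nearly silent in females, and there the added 1 CPM sets much of the difference on this scale.

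The next genes fell short of this limit. bol, at 1.93, had 5 transcripts, from 19.0 to 65.5 CPM in males and from 3.06 to 5.18 CPM in females. In yuri, at 1.70, a gene with a role in spermatid structure, 1 transcript had 9.21 CPM in males and 0.746 CPM in females and another had 13.3 and 6.91 CPM. CG6262 and CG12983, at 1.97 and 1.88, were at 0.123 CPM or less in females in every such transcript. The eighth, CG15086, at 1.66, holds transcripts that current annotation places in different genes.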

How the data were processed

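RNA of male, female and metafemale larvae was extracted with TRIzol and made into libraries with the Illumina TruSeq RNA kit, per the labels' protocols. The submitters' processing notes name TopHat, HTSeq and build dm3, and their versions, the annotation and the use of strand are not stated in the sources used here. The authors deposited fractions: each transcript's value as a share of its group's transcript counts, with 1 column per group in an X-linked table (3698 transcripts) and an autosomal table (19040).

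Here the fractions were multiplied by 1000000 to CPM. In every column 100% of values under 0.05 CPM equalled sums of whole multiples of 3 steps (relative tolerance 1e-05), against at most 0.783% after 5% noise, so columns were read as means over 3 libraries. The floor is 3 counts. Gene symbols, arms and gene order came from RefSeq Release 6 (21508 transcripts matched by accession, 1121 by name, 109 unmatched), which is another build, so no coordinates are given. Gene names that are now 1 gene were counted once within a list. Near-identical and overlapping genes share or split reads, and their values are uncertain.

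With 1 pooled column per group no test was possible, and log2 ratios, counts past 2-fold and exact binomial intervals are descriptions. The libraries had no molecular identifiers, so reads are not independent molecules. The members, limits and gene lists were chosen with earlier results of these data known. The text names every dosage compensation and sex determination gene, the strongest called members of each other list (up to 4, or 2 by female level where none was called), and the extremes of each class. Other genes named as examples were chosen after their values were seen. Scaling, pseudocount, filter, fold and class limits were varied. Analyses used Python 3.11.15 with numpy 2.4.6, pandas 2.3.3, scipy 1.17.1 and matplotlib 3.10.9, and were tested on simulated data.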

Additional observations from a re-analysis of the deposited data

How the results depend on the processing

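No paired analysis was possible because each group is 1 pooled column, and for the same reason no replicate could be left out. With median-of-ratios scaling the list medians of the proteasome (-0.07) and the somatic gonad (-0.02) turned to 0.03 and 0.04, and the body class to 126 higher and 115 lower genes, against 95 and 141. A mean of 10 CPM gave 315 higher and 141 lower genes. Lower genes numbered 104 with 5 CPM added to each value, 59 at 3-fold and 781 at 1.5-fold. With 5 CPM added, 1057 genes under 1 CPM in females were higher, of which 9.37% were X-linked, against 1605 and 14.6%. Genes under 1 CPM in males that were higher in females numbered 127 with 0.1 CPM added and 12 with 5 CPM added, against 33. They numbered 12 and 61 with stricter and looser limits, and 18 and 79 at 3-fold and 1.5-fold. With the limit on the metafemale column the set is another one, genes under 1 CPM in metafemales, and 15 of these were higher in females than in males. Higher body genes numbered 62 with 5 CPM added, 47 and 158 with stricter and looser limits, and 19 and 347 at 3-fold and 1.5-fold, and lower ones 45 and 543 at 3-fold and 1.5-fold. The body median was -0.10 with 5 CPM added, -0.021 with median-of-ratios scaling, -0.048 with autosomal scaling, -0.14 by the metafemale column, and -0.13 and -0.10 with stricter and looser limits. The X minus autosome difference stayed between -0.19 and -0.15 and the female share of strong male genes between 0.321 and 0.350%. Of 129 named genes, 104 kept both their call and the sign of their log2 ratio with 5 CPM added, and at least 123 under each other alternative. Depth limits the values near 0.0178 CPM in males and 0.0133 CPM in females.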
